A study of Mus musculus with 9 samples.

Results

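Heat shock genes were described in 3 populations of luminal epithelial cells sorted from adult mouse mammary glands. The set held 10 genes chosen by name and found in the table by their NCBI gene numbers: Hspa1a, Hspa1b, Hspa8, Hsp90aa1, Hsp90ab1, Hsph1, Hspb1, Hspd1, Dnajb1 and Hsf1. These were 10 of the 27179 genes in the table, and all 10 were among the 15910 genes that passed the filter on low counts and were tested. Bulk RNA-seq libraries had been made from lineage-negative cells sorted on CD14, a surface receptor for bacterial products, and on YFP under PR-cre, with 3 libraries per population. PR-cre places the Cre recombinase under the progesterone receptor gene, so YFP marks cells in which that gene was active or had been active earlier. HR- LP cells were CD14 positive and YFP negative, HR+ LP cells were CD14 positive and YFP positive, and ML cells were CD14 negative. The labels of the ML samples call them YFP positive and the design text of the series calls them YFP negative, and the sample labels were followed. The labels abbreviate the names of the populations and give no strain, no exact age and no treatment. They do not say whether the libraries of a population came from separate mice, so the p-values measure only the spread between these libraries.

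Heat shock proteins are molecular chaperones, which bind unfolded proteins and help them to fold, to stay soluble or to be handed to degradation. HSP70 proteins work with HSP40 partners that deliver clients and start ATP hydrolysis and with HSP110 proteins that exchange the nucleotide, while HSP90 finishes the folding of kinases and steroid receptors, among them the progesterone and estrogen receptors of hormone-responsive mammary cells. Under heat or other protein-damaging stress the transcription factor HSF1 forms trimers, binds heat shock elements made of alternating GAA and TTC units in promoters and raises transcription of the inducible chaperones within minutes. Tissue dissociation and cell sorting are known to induce these genes, as they do the immediate early genes.

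The RefSeq table of promoters (GRCm38.p6) held entries for 6 of the 10 genes: Hspa1a, Hspa1b, Hsph1, Hspb1, Hspd1 and Dnajb1. The 250 bases before each start were searched on both strands for the element of 3 alternating units and for its 2-unit forms, GAANNTTC and TTCNNGAA, which are contained in it and can overlap each other. A 2-unit form was present in 6 of the 9 entries of these genes, in 5 of the 6 genes, against 12.8% of all 32851 promoters, and the 3-unit element was present in Hspd1 alone, against 0.466% of all promoters. The stretches that hold these letters are shown because HSF1 acts through such elements, with the matching letters in capitals and each stretch read 5′ to 3′ on the strand of its gene.
Hspa1a and Hspa1b (chr17:34972242-34972271 and chr17:34959324-34959353, minus strand): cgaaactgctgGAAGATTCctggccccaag
Hsph1 (chr5:149636351-149636380, minus strand): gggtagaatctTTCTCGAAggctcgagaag
Hspb1, farther match (chr5:135887791-135887820, plus strand): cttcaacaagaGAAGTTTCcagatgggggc
Hspb1, nearer match (chr5:135887811-135887840, plus strand): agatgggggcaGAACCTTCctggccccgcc
Hspd1 (chr1:55088053-55088082, minus strand): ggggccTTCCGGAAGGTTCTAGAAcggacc

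Hspa1a and Hspa1b carried the same stretch, 104 to 97 bases before their starts, and the 250 bases before both starts differed at 3 positions (98.8% identical). The Hspb1 matches lay 117 to 110 and 97 to 90 bases before its start. The Hspd1 capitals mark overlapping matches to the 3-unit element on both strands, which together make 4 alternating units. They lay 144 to 127 bases before the start of its second promoter entry, inside an exon of the transcript Hspd1-202, and the first entry of Hspd1 held no match. The Hsph1 match overlapped exons of the transcripts Hsph1-203 and Hsph1-206. Neither of the Dnajb1 entries held these letters, which says only that they are not in this window. A match of letters is a description and not evidence of binding.

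The libraries held 27219103 to 108119756 counts each, so the spread between libraries, not counting, set the precision for genes at these levels. The first principal component of the tested genes carried 61.4% of the variance, and on the next one (10.1%) HR- LP replicate 3 stood apart at -91.6, against 15.8 and 39.5 for the other HR- LP libraries. The summed level of 10 pan-luminal keratin, claudin and adhesion genes was 14900 to 19700 CPM (counts scaled to one fixed library total) across the 9 libraries. A list of 7 luminal progenitor markers summed to 10200 to 11600 CPM in HR- LP, 3280 to 3780 in HR+ LP and 73.1 to 146 in ML. A list of 8 markers of hormone-sensing cells summed to 204 to 488 CPM in HR- LP, 6050 to 7180 in HR+ LP and 8690 to 11400 in ML. Among these, the progesterone receptor gene Pgr had means of 9.416, 278.7 and 434.6 CPM. Markers of other cell types were low: 10 basal genes summed to at most 103 CPM, 8 fibroblast genes to at most 321, 6 endothelial genes to at most 80.7 and 8 immune genes to at most 12.1. The T cell gene Cd3e had no count in HR+ LP or ML, and the macrophage gene Adgre1 had none in HR- LP. In bulk libraries, fewer cells that express a gene and less RNA per cell cannot be told apart.

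Per kilobase of exon and by the counts as deposited, the cytosolic HSP90 gene Hsp90ab1 was the most abundant of the 10 in every population. Hsph1 and Hsf1 were the least abundant. Levels between genes are compared as RPKM, which is CPM scaled by TMM factors and divided by the exon length deposited with the counts. Of all 50-base windows of the transcript, 74.8% of Hspa8, 62.3% of Hspa1b and 51.6% of Hspb1 also occur in other genes, against 4.5% of Hsp90ab1. How reads from such windows were counted is not known, so the order of these genes is uncertain. Hsp90ab1 reached 1057 ± 133 RPKM (SD, n = 3) in HR- LP, 1025 ± 37.2 in HR+ LP and 944.6 ± 56.16 in ML. In HR- LP the next levels were 570.3 ± 29.47 for Hspa8, 545.2 ± 96.82 for Hspb1 and 501.7 ± 184.8 for Hspa1b, which lay within each other's spread. In HR+ LP and ML, Hspa1b came second at 686.5 ± 219.9 and 627.5 ± 236.3, ahead of Hspa8 at 374.7 ± 58.54 and 268.2 ± 41.45. The lowest levels were those of Hsph1, at 14.96 ± 6.197, 13.3 ± 3.913 and 13.34 ± 3.818 RPKM in HR- LP, HR+ LP and ML, and of Hsf1, at 24.72 ± 4.177, 23.45 ± 0.3941 and 22.19 ± 0.5051. Together the 10 genes held 0.549% to 0.831% of the counts of a library.

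In the comparison of populations, 3 genes were lower in HR+ LP and in ML than in HR- LP, and none of the 10 was called higher in any comparison. Hspb1, Hspa8 and Hsp90aa1 had log2 fold changes of -1.96, -1.09 and -0.82 between ML and HR- LP, and the stress-inducible HSP70 genes Hspa1a and Hspa1b were not called. Each comparison was tested with edgeR's quasi-likelihood test over all tested genes, and a gene was called at a Benjamini-Hochberg adjusted p below 0.05. Between HR+ LP and HR- LP, 3 of the 10 were called lower, where 12.8% of all tested genes were called lower. Without HR+ LP replicate 1 or replicate 2 this count was 1, and the count over all tested genes went from 2033 to 1329 or 1211. None was called higher, where 17.2% of all tested genes were, and 3 of the 10 had an unadjusted p below 0.05. Between ML and HR+ LP, 1 was called lower, where 6.70% of tested genes were, and none was called higher, where 0.0943% were, with 2 at an unadjusted p below 0.05. Between ML and HR- LP, 3 were called lower, where 21.3% of tested genes were, and none was called higher, where 23.3% were, with 4 at an unadjusted p below 0.05. DESeq2 and limma voom also called none of the 10 higher in any of the 3 comparisons. The edgeR fit with the replicate number as a block called Hspa1b higher in HR+ LP than in HR- LP (log2 fold change 0.47, SE 0.14, adjusted p = 0.032). That fit called 3068 of all 15910 tested genes higher. Whether same-numbered HR- LP and HR+ LP libraries are paired is not known, and without the block the adjusted p of Hspa1b was 0.342. The median log2 fold change of the 10 genes was -0.14, -0.12 and -0.22 in these comparisons, against 0.01, 0.01 and 0.03 over all tested genes. The 3 comparisons share libraries and are not independent of each other.

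**Figure D1:**
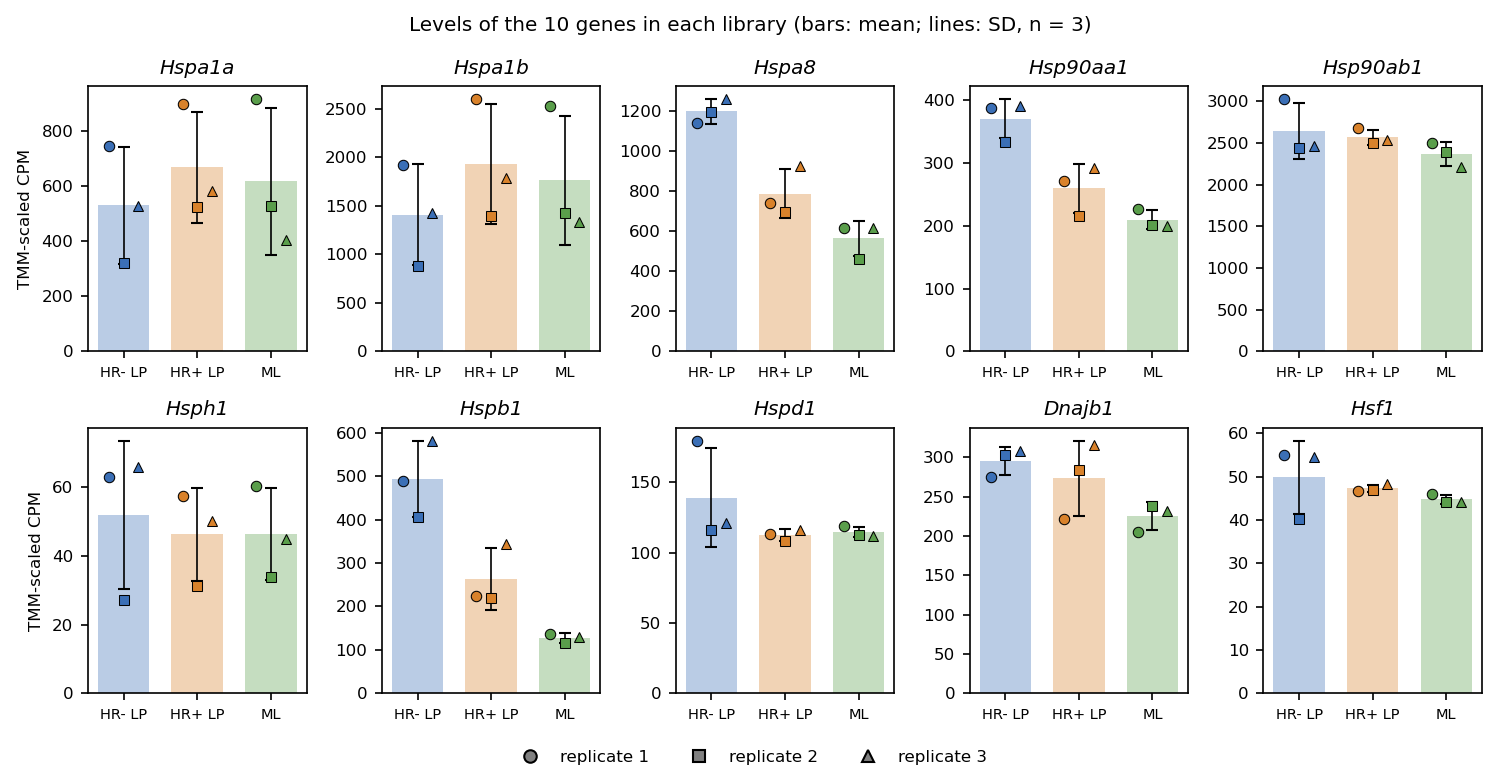
Level of each of the 10 genes in every library, in TMM-scaled CPM on axes that start at 0, with replicate 1 as circles, replicate 2 as squares and replicate 3 as triangles. Bars are means and lines are SD over 3 libraries. Hspb1 steps down without overlap from HR- LP to HR+ LP to ML, while Hspa1a and Hspa1b overlap in all populations and have their highest point at replicate 1 in each.

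Hspb1 (chr5:135887919-135889563) encodes the small heat shock protein HSP25, which holds unfolding proteins in oligomers without using ATP and binds the actin cytoskeleton. It had 488.8, 406.7 and 581.4 CPM in the HR- LP libraries, 224.1, 220.0 and 344.7 in HR+ LP and 136.7, 114.9 and 129.1 in ML. All HR- LP libraries lay above all HR+ LP libraries, and these lay above all ML libraries. The means were 492.3 ± 87.42, 262.9 ± 70.82 and 126.9 ± 11.08 CPM (SD, n = 3). The log2 fold change was -0.91 (SE 0.20, adjusted p = 0.00605) for HR+ LP against HR- LP and -1.05 (SE 0.20, adjusted p = 0.00643) for ML against HR+ LP. Over both steps the level in ML was 0.258 of that in HR- LP (log2 fold change -1.96, SE 0.20, adjusted p = 1.76e-05). Both single steps kept their call with each library left out in turn. With all libraries that share a replicate number left out, the first step lost its call without replicate 1 (adjusted p = 0.0571) or replicate 2 (adjusted p = 0.0585), and the second without replicate 2 (adjusted p = 0.0701).

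Hspa8 (chr9:40801276-40805202) encodes HSC70, the HSP70 that cells make without stress and that also strips clathrin from vesicles and serves chaperone-mediated autophagy. It had 1139, 1198 and 1263 CPM in the HR- LP libraries, 740.1, 696.8 and 928.5 in HR+ LP and 614.3, 463.6 and 615.0 in ML. The 3 populations did not overlap, with means of 1200 ± 62.01, 788.4 ± 123.2 and 564.3 ± 87.20 CPM (SD, n = 3). Hspa8 was lower in HR+ LP than in HR- LP (log2 fold change -0.61, SE 0.16, adjusted p = 0.0159), and leaving out HR+ LP replicate 1 (adjusted p = 0.0654) or 2 (adjusted p = 0.0809) ended the call. From HR+ LP to ML the log2 fold change was -0.48 (SE 0.16, adjusted p = 0.139) and did not pass the test. With the replicate number as a block over all 9 libraries, it was -0.48 (SE 0.12, adjusted p = 0.0408). The pairing was taken from these data alone and only for HR+ LP with ML, while the block also covered HR- LP. In ML the level was 0.470 of that in HR- LP (log2 fold change -1.09, SE 0.16, adjusted p = 0.000255).

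Both cytosolic HSP90 genes were measured, and only the alpha form was called in any comparison. Hsp90aa1 (chr12:110691036-110696395), the more stress-responsive form, had 387.0, 334.2 and 391.1 CPM in HR- LP, 271.6, 216.1 and 291.3 in HR+ LP and 226.7, 201.9 and 200.2 in ML. HR- LP lay above both other populations in every library, and HR+ LP replicate 2 lay inside the range of ML. The log2 fold change was -0.51 (SE 0.15, adjusted p = 0.0210) for HR+ LP against HR- LP, -0.31 (SE 0.15, adjusted p = 0.400) for ML against HR+ LP and -0.82 (SE 0.15, adjusted p = 0.000853) for ML against HR- LP. The call of the first of these ended when HR+ LP replicate 1 (adjusted p = 0.0524) or 2 (adjusted p = 0.103) was left out, with only both populations in the fit (adjusted p = 0.0565) and with scaling by library totals alone (adjusted p = 0.0771).

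Hsp90ab1 (chr17:45567778-45573261), the constitutive form, had 3034, 2445 and 2468 CPM in HR- LP, 2676, 2501 and 2534 in HR+ LP and 2496, 2392 and 2217 in ML. HR- LP replicate 1 was the highest library, and the other HR- LP libraries lay among those of ML. Its log2 fold change was -0.04 (SE 0.14, adjusted p = 0.838), -0.12 (SE 0.14, adjusted p = 0.876) and -0.16 (SE 0.14, adjusted p = 0.366) in the order of comparisons above. The ratio of Hsp90aa1 to Hsp90ab1 in RPKM was 0.112, 0.120 and 0.139 in HR- LP, 0.089, 0.076 and 0.101 in HR+ LP and 0.080, 0.074 and 0.079 in ML, so every HR- LP library was above every other library.

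**Figure D2:**
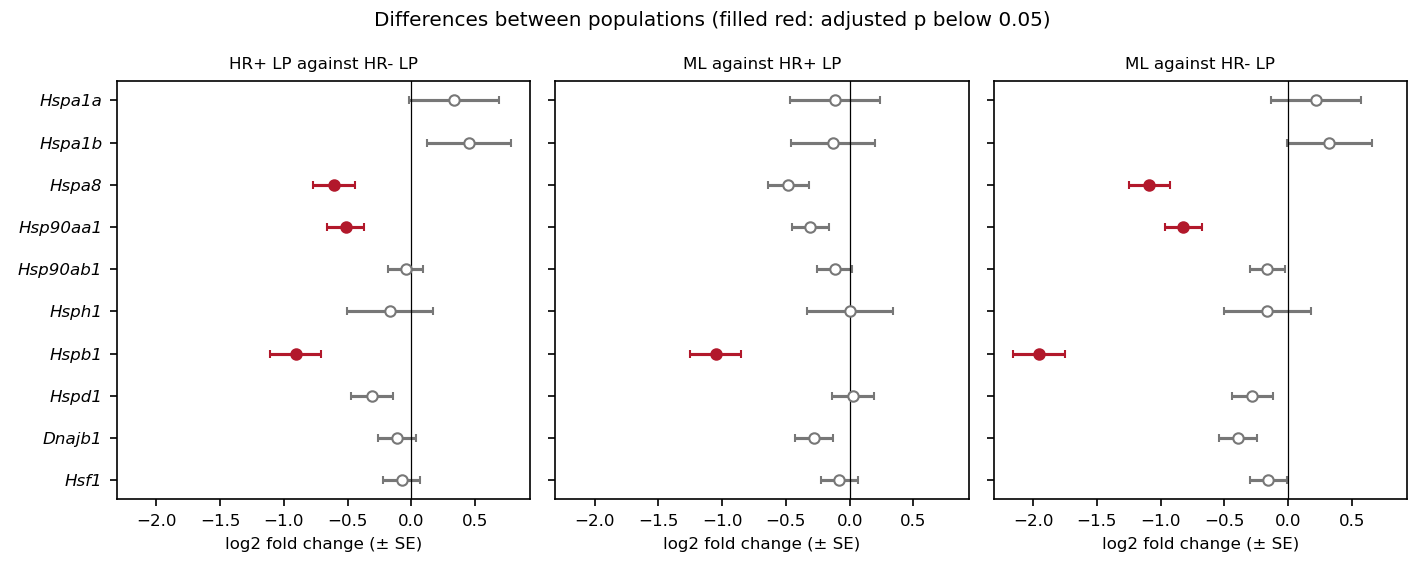
Log2 fold change of each of the 10 genes with its SE in the 3 comparisons of populations, filled red where the adjusted p was below 0.05. The filled points are Hspa8, Hsp90aa1 and Hspb1 in the first and last panel and Hspb1 in the middle panel, all below 0, and the widest intervals are those of Hspa1a, Hspa1b and Hsph1.

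The inducible HSP70 genes differed more between libraries of a population than between populations. Hspa1a (chr17:34969359-34972156) and Hspa1b (chr17:34956429-34959238) are neighbours 10120 bases apart in the class III region of the major histocompatibility complex, and their proteins are nearly the same. Hspa1a had 744.9, 320.8 and 527.4 CPM in HR- LP, 900.0, 524.9 and 583.4 in HR+ LP and 918.4, 528.8 and 405.4 in ML. Hspa1b had 1919, 880.8 and 1430 CPM in HR- LP, 2606, 1395 and 1787 in HR+ LP and 2528, 1429 and 1333 in ML. In both genes the replicate 1 library was the highest of its population in all 3 populations, and the populations overlapped.

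For Hspa1a the log2 fold change was 0.33 (SE 0.35, adjusted p = 0.520), -0.12 (SE 0.35, adjusted p = 0.970) and 0.22 (SE 0.35, adjusted p = 0.654) in the same order of comparisons. For Hspa1b it was 0.45 (SE 0.33, adjusted p = 0.342), -0.13 (SE 0.33, adjusted p = 0.964) and 0.32 (SE 0.33, adjusted p = 0.464). Each HR+ LP library was above the HR- LP library of the same number in both genes. Whether libraries of these populations are paired by number is not known, so this was not read as a paired comparison, and their ranges overlapped. The count of Hspa1a was 0.304 to 0.388 of that of Hspa1b in every library. Of all 50-base windows of the Hspa1a transcript, 58.8% also occur in Hspa1b, and how such reads were counted is not known. The steady ratio therefore cannot show whether the copies moved together. Both copies added and tested as 1 gene gave 0.42 (SE 0.34, adjusted p = 0.385), -0.13 (adjusted p = 0.965) and 0.30 (adjusted p = 0.513).

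The balance between the constitutive and the inducible HSP70 differed between libraries. Hspa8 divided by the sum of Hspa1a and Hspa1b, in RPKM, was 0.570, 1.33 and 0.861 in HR- LP, 0.282, 0.484 and 0.523 in HR+ LP and 0.238, 0.316 and 0.472 in ML. All HR- LP libraries were above all others, while HR+ LP and ML overlapped. The replicate 1 library had the lowest ratio in each population.

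Hsph1 (chr5:149616843-149636498), an HSP110 that exchanges the nucleotide of HSP70 and is itself induced by heat, followed the inducible HSP70 genes across libraries. It had 62.95, 27.19 and 65.91 CPM in HR- LP, 57.48, 31.12 and 50.19 in HR+ LP and 60.36, 33.93 and 44.85 in ML. The replicate 2 library was the lowest in all 3 populations, at 27.19 to 33.93 CPM, and the populations covered the same range. Its log2 fold change was -0.17 (SE 0.34, adjusted p = 0.749), 0.00 (SE 0.34, adjusted p = 1) and -0.16 (SE 0.34, adjusted p = 0.733).

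Deviations from the mean of the population show how the genes moved between same-numbered libraries. On the log2 scale, replicate 1 libraries lay on average 0.57 above the mean of their population for Hspa1a, 0.53 for Hspa1b and 0.39 for Hsph1. Replicate 2 libraries averaged -0.36, -0.42 and -0.59 for the same genes. Dnajb1 went the other way, with -0.17 in replicate 1 and 0.06 in replicate 2, and its replicate 1 library was the lowest of each population. Replicate 1 was the highest library of all 3 populations for Hspa1a, Hspa1b and Hsp90ab1, or 30% of the 10 genes, and for 1313 of 15910 tested genes (8.25%). Among 20 immediate early genes it was so for 3 (15%).

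**Figure D3:**
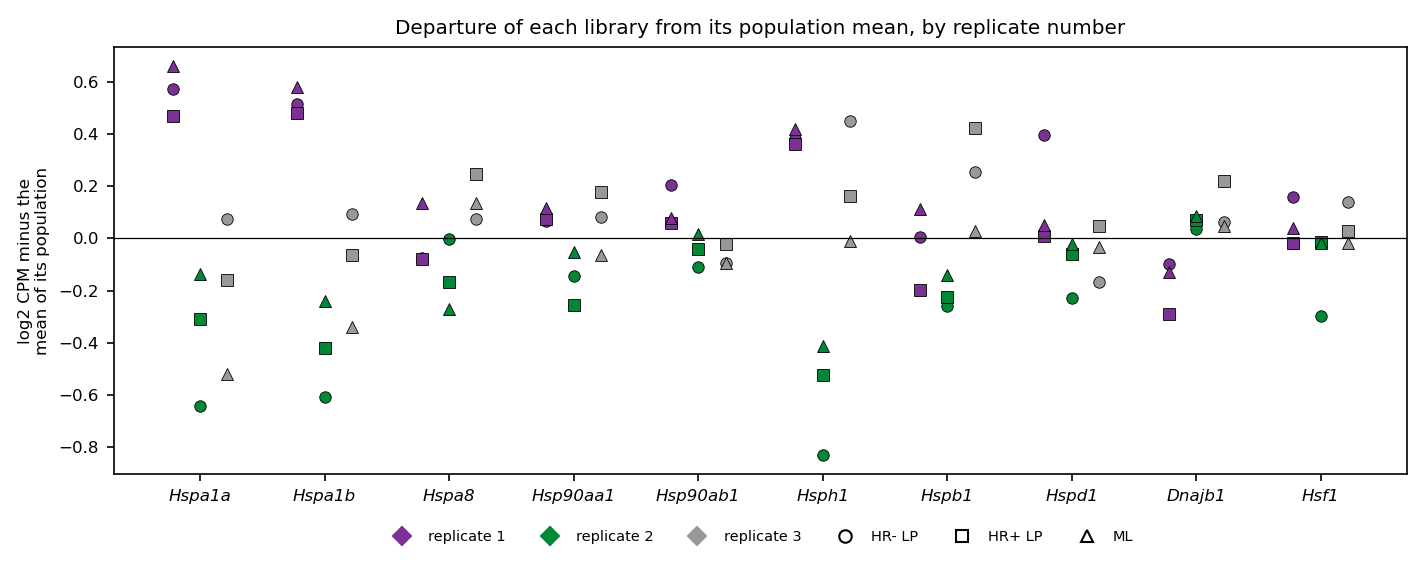
Log2 CPM of each library minus the mean of its population, by gene, with colour for the replicate number and shape for the population. Replicate 1 lies above 0 and replicate 2 below 0 in all 3 populations for Hspa1a, Hspa1b and Hsph1, and the order is opposite for Dnajb1.

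Over the 9 libraries, whose deviations sum to 0 within a population and so are not independent, the deviations of Hspa1a and Hspa1b had a Pearson correlation of 0.98, those of Hspa1b and Hsph1 0.87 and those of Hsp90aa1 and Hsph1 0.84. Hsp90ab1 and Hspd1 had 0.91, and Hspa8 and Hspb1, both lower in ML than in HR- LP, had 0.76. Dnajb1 and Hspa1b had -0.68, and Hspa1a and Hspa8 had -0.01. These are descriptions of 10 genes in 9 libraries. How reads shared by Hspa1a and Hspa1b were counted is not known, and the part of that counting in their correlation was not tested. The share of all counts held by the 20 immediate early genes, which include Fos, Jun and Egr1 and answer to dissociation, was 7.12%, 6.15% and 4.40% in HR- LP, 4.52%, 4.36% and 3.71% in HR+ LP and 3.16%, 3.00% and 2.30% in ML. It was highest in replicate 1 and lowest in replicate 3 of each population, and it was lower in every ML library than in every HR- LP library, as were Hspb1, Hspa8 and Hsp90aa1, while Hspa1a and Hspa1b overlapped. Its part in these results was not tested.

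Dnajb1 (chr8:83608175-83612653), the HSP40 that hands unfolded clients to the inducible HSP70, had 275.4, 302.6 and 308.4 CPM in HR- LP, 221.3, 283.7 and 315.0 in HR+ LP and 205.4, 238.3 and 232.3 in ML. HR- LP and ML did not overlap, and the range of HR+ LP overlapped with both. Its log2 fold change was -0.11 (SE 0.15, adjusted p = 0.616) for HR+ LP against HR- LP and -0.28 (SE 0.15, adjusted p = 0.512) for ML against HR+ LP. For ML against HR- LP it was -0.39 (SE 0.15, adjusted p = 0.0539), just short of the call. It was called lower in 8 of 20 other settings of this comparison, with adjusted p from 0.0144 to 0.208, among them DESeq2 (adjusted p = 0.0323) and the fits without HR- LP replicate 1 (adjusted p = 0.0389) or HR+ LP replicate 1 (adjusted p = 0.0412).

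Hspd1 (chr1:55077833-55088243) encodes HSP60, the chaperonin of the mitochondrial matrix. It had 179.6, 116.4 and 121.2 CPM in HR- LP, 113.3, 108.0 and 116.1 in HR+ LP and 118.7, 112.9 and 111.9 in ML. HR- LP replicate 1 stood above the other libraries, which covered 108.0 to 121.2 CPM. Its log2 fold change was -0.31 (SE 0.16, adjusted p = 0.189), 0.03 (SE 0.16, adjusted p = 0.988) and -0.28 (SE 0.16, adjusted p = 0.191). Hspe1, which encodes the partner HSP10 and is read from the same region in the opposite direction, had 28.71 ± 9.282, 31.65 ± 2.017 and 31.30 ± 2.959 CPM (SD, n = 3) in HR- LP, HR+ LP and ML with adjusted p of 0.649, 0.996 and 0.661.

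Hsf1 (chr15:76477362-76501155), the regulator itself, had the smallest SD relative to its mean of the 10 in HR+ LP and ML. It had 55.05, 40.16 and 54.46 CPM in HR- LP, 46.80, 46.93 and 48.24 in HR+ LP and 45.96, 44.19 and 44.20 in ML. The HR+ LP libraries all lay above the ML libraries, by little, and HR- LP spanned both. Its log2 fold change was -0.08 (SE 0.14, adjusted p = 0.728), -0.08 (SE 0.14, adjusted p = 0.946) and -0.16 (SE 0.14, adjusted p = 0.413). HSF1 is regulated mainly after translation, by release from chaperones, trimer formation and phosphorylation, none of which is measured by RNA-seq.

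The rest of the chaperone network was read from lists, chosen as the 10 genes were with earlier results known. Among 9 other HSP70 and HSP110 genes, Hspa2 was called lower in ML than in HR- LP (log2 fold change -0.52, SE 0.16, adjusted p = 0.0220), a call that needed both HR- LP replicate 2 (adjusted p = 0.0883 without it) and ML replicate 3 (adjusted p = 0.0968 without it). The median log2 fold change of this list between ML and HR- LP was 0.17. Among 14 other HSP40 genes, 3 were higher and 1 lower in ML than in HR- LP, with a median of 0.24. Of all tested genes, 23.3% were higher and 21.3% lower. Dnajb4, a partner of HSP70 in the cytosol, was higher by 0.78 (SE 0.15, adjusted p = 0.00188).

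The small heat shock proteins held the steepest fall among the chaperone lists. Cryab, alpha B-crystallin, which forms mixed oligomers with the Hspb1 product, had 101.5, 59.13 and 54.21 CPM in HR- LP, 25.18, 19.48 and 22.45 in HR+ LP and 2.278, 2.766 and 2.849 in ML. The populations did not overlap, in the same order as for Hspb1. Its log2 fold change was -1.68 (SE 0.23, adjusted p = 0.000387), -3.08 (SE 0.26, adjusted p = 1.25e-05) and -4.76 (SE 0.27, adjusted p = 2.21e-07). Of the 7 other small heat shock genes 4 were tested, and Hspb8 differed in the other direction, higher in ML than in HR- LP by 0.71 (SE 0.17, adjusted p = 0.00502). Basal cells of the gland also express Cryab. The 10 basal markers summed to 57.9 to 103 CPM in HR- LP, 38.2 to 57.8 in HR+ LP and 33.4 to 52.4 in ML. Of these 10, 4 were called lower and 1 higher in ML than in HR- LP, where 21.3% and 23.3% of all tested genes were. None of the 10 was at 0 in any population. The part of basal RNA in the Cryab values was not tested.

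**Figure D4:**
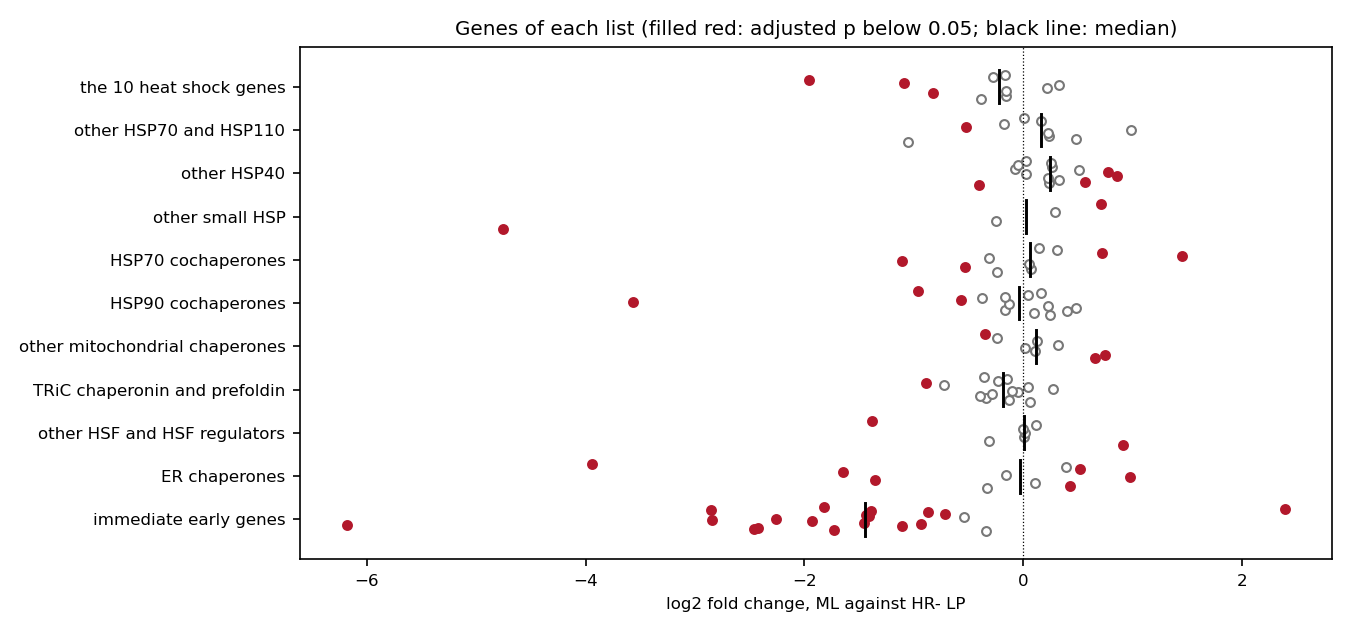
Log2 fold change of ML against HR- LP for each tested gene of the 10 heat shock genes and the wider lists, filled red where the adjusted p was below 0.05, with the median of each list as a black line. Medians of the chaperone lists lie between -0.22 and 0.24, and that of the immediate early genes lies at -1.44.

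Of 10 cochaperones of HSP70, 2 were higher and 2 lower in ML than in HR- LP, with a median of 0.06, close to the 23.3% higher and 21.3% lower over all tested genes. Sil1, a nucleotide exchange factor of the endoplasmic reticulum, was higher by 1.45 (SE 0.18, adjusted p = 6.31e-05), and Bag5, a cytosolic exchange factor, was lower (log2 fold change -1.11, SE 0.20, adjusted p = 0.000954). Of 14 cochaperones of HSP90, 2 were lower in HR+ LP than in HR- LP, 1 in ML than in HR+ LP and 3 in ML than in HR- LP. These counts lay near the shares of all tested genes called lower, which were 12.8%, 6.7% and 21.3%. Fkbp5, an immunophilin that joins HSP90 on steroid receptors and is itself a target of these receptors, had 54.69, 76.92 and 124.4 CPM in HR- LP, 18.39, 26.39 and 38.62 in HR+ LP and 9.680, 6.042 and 5.934 in ML. No population overlapped another, and the log2 fold change was -1.62 (SE 0.34, adjusted p = 0.00471), -1.95 (SE 0.35, adjusted p = 0.00436) and -3.57 (SE 0.37, adjusted p = 1.69e-05). Unc45a, which guides HSP90 to myosin and other clients, was lower in ML than in HR- LP (log2 fold change -0.96, SE 0.17, adjusted p = 0.000947). Under scaling by library totals alone, 2 of this list were called higher in ML than in HR- LP, where 4463 of all 15910 tested genes were.

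Of 8 other mitochondrial chaperones and proteases, 2 were higher and 1 lower in ML than in HR- LP, with a median of 0.12, near the shares over all tested genes (23.3% higher and 21.3% lower). Of 14 genes of the TRiC chaperonin, which folds actin and tubulin, and its helper prefoldin, 1 was lower in ML than in HR- LP, with a median of -0.19. That gene was the prefoldin subunit Pfdn5 (log2 fold change -0.89, SE 0.14, adjusted p = 3e-04). Of 9 other heat shock factors and regulators of HSF1, 7 were tested. Sirt1, a deacetylase that prolongs the binding of HSF1 to DNA, was lower in ML than in HR- LP (log2 fold change -1.38, SE 0.16, adjusted p = 4.76e-05), and Dedd2 was higher by 0.91 (SE 0.21, adjusted p = 0.00512).

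Chaperones of the endoplasmic reticulum, which answer to the unfolded protein response and not to HSF1 alone, included a steeper step than that of Hspb1. Of 10 such genes, 3 were lower and 3 higher in ML than in HR- LP, with a median of -0.03. Over all tested genes, 21.3% were lower and 23.3% higher. Dnajc3 of this list was higher in HR+ LP than in HR- LP (log2 fold change 0.74, SE 0.12, adjusted p = 0.00103). Its means were 177.1, 295.1 and 347.3 CPM in HR- LP, HR+ LP and ML. Hspa5, the HSP70 of this compartment (BiP), had 2201, 1582 and 1828 CPM in HR- LP, 907.4, 854.6 and 1003 in HR+ LP and 522.7, 629.8 and 637.6 in ML. The populations did not overlap, and the log2 fold change between ML and HR- LP was -1.65 (SE 0.16, adjusted p = 1.02e-05). Serpinh1, the collagen chaperone HSP47 and an HSF1 target, had 110.6, 66.79 and 74.39 CPM in HR- LP, 42.93, 20.35 and 32.05 in HR+ LP and 5.962, 5.595 and 4.803 in ML, with a log2 fold change between ML and HR- LP of -3.95 (SE 0.30, adjusted p = 1.61e-06). Fibroblasts make much Serpinh1, and of their 8 markers 4 were called lower in ML than in HR- LP (Pdgfra, Col1a2, Col3a1 and Fn1), 1 was called higher (Dcn) and none was at 0 in any population. Their sum was 79.3 to 138 CPM in HR- LP, 64.9 to 269 in HR+ LP and 111 to 321 in ML, and Dcn alone had means of 8.938, 128.5 and 152.7 CPM. The means of Col3a1 were 38.67, 5.815 and 12.10 CPM, and the part of fibroblast RNA in the Serpinh1 values was not tested. Of the 20 immediate early genes, 17 were lower and 1 higher in ML than in HR- LP, with a median of -1.44. The shares over all tested genes were 21.3% lower and 23.3% higher. The calls between ML and HR- LP that are named here from the wider chaperone lists held with each single library left out, except that of Hspa2. This does not cover the fibroblast markers.

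The genes whose pattern over the 9 libraries was most like the mean log2 CPM of the 4 inducible genes Hspa1a, Hspa1b, Dnajb1 and Hsph1 were found among 9626 other genes with a mean log2 CPM over 3. They were Nnt (Pearson r 0.89), Mrpl46 (0.89), Pola2 (0.89), Tbp (0.83) and Eif2b2 (0.82). Nnt, which encodes the mitochondrial nicotinamide nucleotide transhydrogenase, had 23.45, 12.69 and 18.46 CPM in HR- LP, 27.48, 17.75 and 20.09 in HR+ LP and 25.99, 20.85 and 18.30 in ML, so its replicate 1 library was the highest of each population. No other gene of the chaperone lists was among the 5. Without HR- LP replicate 3, 2 of the 5 stayed among the 5 most alike, Nnt and Mrpl46. These correlations were selected as the highest of many and the libraries share numbers and populations.

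Reads of several of these genes match other places in the genome. Of all 50-base windows of its main GENCODE M21 transcript, 74.8% of Hspa8 also occurred in transcripts of other genes, most of them in the pseudogene Gm15459. The share was 66.3% for Hspa1a and 62.3% for Hspa1b, mostly with each other, 58.5% for Hsp90aa1, 51.6% for Hspb1 (with Hsp25-ps1) and 44.8% for Hspd1 (mostly with Hspd1-ps3). It was 4.5% for Hsp90ab1, 0.4% for Dnajb1 and 0 for Hsph1 and Hsf1. Reads that match several places may have been dropped or divided in the authors' counting, so the levels of the first 6 genes, and the split between Hspa1a and Hspa1b, are uncertain. A gene's comparison between populations uses the same counting in every library. Strand was not kept by the library kit, so reads of Hspa1a could not be told from those of Gm20481, which overlaps 2225 of its bases on the opposite strand, nor those of Hspd1 from those of Hspe1 over 112 bases. Hspa8 also holds the small nucleolar RNAs Snord14c, Snord14d and Snord14e in its introns.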

How the data were processed

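The RNA, from a miRNeasy kit with DNase treatment, went into TruSeq RNA v2 libraries at an input of at least 50 ng, a kit that does not mark strand, per the labels' protocols. The authors deposited raw counts per gene with an exon length in bases, in 9 libraries, and the submitters' processing notes name featureCounts and mm10. Which aligner and annotation were used, and how reads matching several places were counted, is not given in the sources used here. The series table and the sample files held the same counts (0 cells differed). Of 27179 NCBI gene numbers, 25275 (93.0%) were matched to a RefSeq symbol and 1904 were kept without a name. The members and lists were chosen with earlier results of these data known.

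Counts were filtered with filterByExpr by population (15910 genes left), scaled by TMM and tested with edgeR's quasi-likelihood test on all 9 libraries without covariates, with Benjamini-Hochberg adjustment over all tested genes and a threshold of 0.05. The fit was tested on simulated data. Log2 levels used a prior count of 2. All 10 heat shock genes are named in every comparison. From each wider list, called genes are named from the 3 with the smallest p in a comparison, and Hspe1 and 5 fibroblast markers were named after their values were seen. Alternatives were other scalings, filters and tools, fits of only both groups compared, the replicate number as a block and the removal of single libraries. Leaving out all libraries of a replicate number was added after seeing the data. Same-numbered HR+ LP and ML libraries deviated from their population means with correlations across genes of 0.183, 0.121 and 0.189, each over 0.1, so the numbers were taken to pair these populations, from the data alone. Tests ran in edgeR 4.0.16, with DESeq2 1.42.0 and limma 3.58.1 as alternatives, under R 4.3.3. Figures were drawn with matplotlib 3.10.9 under Python 3.11.15. Sequences are from RefSeq GRCm38.p6 and transcripts and overlaps from GENCODE M21 (GRCm38).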

Additional observations from a re-analysis of the deposited data

How the results depend on the processing

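Of 606 log2 fold changes of the 10 genes under other settings, 547 kept direction and side of the threshold, 14 lost a call, 10 gained one and 35 changed sign. None of the sign changes involved a called value. The count of genes lower in HR+ LP than in HR- LP was 0 to 3 over fits with libraries left out (1 without HR+ LP replicate 1 or 2, 0 without all replicate 1 or all replicate 2 libraries, which was added after seeing the data). The count of the 10 lower in ML than in HR+ LP was 0 to 1 (0 without all replicate 2 libraries, where fewer libraries were fitted). Over all tested genes, that fit called 566 lower, from 1066. The 3 genes lower in ML than in HR- LP were called in 20 of 20 settings. With the replicate block, 1 gene was called higher in HR+ LP than in HR- LP, Hspa1b (log2 fold change 0.47, adjusted p = 0.032), and 2 were lower in ML than in HR+ LP. Over all 15910 tested genes, the same fit called 3068 higher in HR+ LP than in HR- LP and 1253 lower in ML than in HR+ LP. For HR- LP with HR+ LP, the correlations of same-numbered libraries were 0.133, 0.039 and 0.147, and those of differently numbered ones were -0.146 to 0.019. The second was below 0.1, so these populations were not taken as paired, and whether they are is not known. Without HR- LP replicate 3 the counts of genes called lower were 3, 1 and 3.

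Sign changes outside left-out libraries were 0.062 for Hsp90ab1, 0.028 for Hsf1 (library totals) and 0.008 for Hsph1 (limma voom) in HR+ LP against HR- LP, -0.002 (no filter) and -0.042 (limma voom) for Hsph1 in ML against HR+ LP and 0.003 for Hsf1 in ML against HR- LP (library totals). With libraries left out, values in HR+ LP against HR- LP ranged from -0.095 to 0.068 for Hsp90ab1, -0.473 to 0.055 for Hsph1, -0.224 to 0.022 for Dnajb1 and -0.207 to 0.012 for Hsf1. In ML against HR+ LP they ranged from -0.52 to 0.16 for Hspa1a, -0.48 to 0.15 for Hspa1b, -0.23 to 0.19 for Hsph1 and -0.004 to 0.065 for Hspd1. In ML against HR- LP they ranged from -0.18 to 0.54 for Hspa1a, -0.028 to 0.611 for Hspa1b and -0.473 to 0.066 for Hsph1. The causes were not tested.

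Scaling by library totals alone moved the median of all genes to 0.12, 0.06 and 0.19 in the 3 comparisons, and the split of calls for HR+ LP against HR- LP to 3182 higher and 1535 lower, from 2731 and 2033. All genes called higher in ML than in HR+ LP numbered 15, against 30 (library totals), 92 (DESeq2), 50 (limma voom), 216 (both groups alone) and 71 (replicate block), and 0 to 63 with libraries left out. Under scaling by library totals alone, 6 other HSP40 genes were called higher in ML than in HR- LP and 0 lower, from 3 and 1. Over all tested genes these calls went to 4463 higher and 2801 lower, from 3700 and 3389. A planned comparison of protein sequences was not run.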
